A study of Mus musculus with 7 samples.

Results

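The genes described here are 32 genes that mark endothelial cells, the single layer of cells that lines every blood vessel. They were chosen by name from a fixed list, and all 32 were found among the 32544 genes of the deposited table. The samples were 7 bulk RNA libraries, each labelled as abdominal aorta taken whole from male Apoe-/- mice, a strain that lacks apolipoprotein E and develops atherosclerosis on a fatty diet. QuantSeq 3′ sequencing counted reads at the end of each transcript. In the ITA-LNP group (3 libraries), mice received 50 mg/kg of ITA-LNP intravenously 1 time a week, and in the control-LNP group (4 libraries) mice received control-LNP at the same dose and schedule. ITA is the labels' own abbreviation, and the title of the series names itaconate, a metabolite made by activated macrophages. Every mouse of both groups carried the Apoe deletion and had 12 weeks of high-fat diet. The labels do not give the age of the mice or the composition of the particles, or whether the libraries come from different animals. The p-values therefore measure only the spread between these 7 libraries.

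Endothelial cells are held together by VE-cadherin and claudin-5, sense vascular endothelial growth factors (VEGF) and angiopoietins through receptor tyrosine kinases, and make nitric oxide, which relaxes the smooth muscle beneath them. ERG and the SOX factors SOX7, SOX17 and SOX18 are transcription factors that help set and keep endothelial identity. In the normal aorta the endothelium is 1 cell layer on a wall made mostly of smooth muscle, with fibroblasts outside it. Some genes of the list are also active in blood cells: platelets carry Pecam1, Esam and Vwf, lymphocytes carry S1pr1, red cells carry Aqp1, and blood progenitors carry Cd34.

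Levels are given as CPM, counts per 1000000 reads of a library, and fold changes as log2 of CPM + 1, ITA-LNP over control-LNP, with the standard error after ±. A gene was called when its limma adjusted p was under 0.05 over all 12636 genes tested. The libraries held 6375381 to 7281721 reads in the ITA-LNP group and 5077073 to 6688872 in the control-LNP group, so that 3 reads, the limit that a count of 0 allows, were 0.412 to 0.591 CPM. The labelled tissue was checked with marker lists. The summed CPM of 7 smooth muscle genes was 17051 to 20762 in ITA-LNP libraries, against 155 to 461 in control-LNP libraries, and that of 7 fibroblast genes was 19004 to 22047 against 123 to 290.3 CPM. The 14 platelet genes gave the opposite order, with 138 to 266 CPM in ITA-LNP libraries and 6564 to 7924 CPM in control-LNP libraries. The control-LNP libraries, labelled abdominal aorta, thus held few transcripts of the aortic wall and many of blood. The 7 monocyte and macrophage genes did not separate the groups, with 1261 to 2165 CPM in ITA-LNP libraries and 1345 to 1841 CPM in control-LNP libraries. Control-LNP replicate 2 stood apart: its 7 neutrophil genes summed to 26596 CPM, against 901 to 10175 CPM in the other control-LNP libraries, and without it the count of changed genes was 4053, against 1957 with all libraries. In bulk samples, fewer endothelial cells, less RNA per endothelial cell and a different content of wall and blood cannot be told apart.

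Most of the endothelial genes were much higher in the ITA-LNP libraries. Of the 32 genes, 31 passed the filter on low values, 25 were called higher, 0 were called lower and 6 (Pecam1, Esam, Tie1, S1pr1, Vwf and Gja5) were not called. Without control-LNP replicate 2 the count was also 25. Among all tested genes 10.3% were called higher and 5.15% lower. For 25 of the 32 genes every ITA-LNP library lay above every control-LNP library, a pattern found in 19.1% of all tested genes. The log2 fold changes of the called genes ran between 3.60 and 7.19. Of the tested genes, 17 reached the filter through their ITA-LNP levels only, and 16 of those were called. The other 14 also reached the filter's level in the control-LNP libraries alone, and 9 of those were called. Median centring, which sets the median of every library equal, moved all genes by -1.13 on the log2 scale. It left 22 of the genes called higher, without Flt1, Tek and Ramp2. With control-LNP replicate 2 left out as well, 25 were called higher after median centring. With median centring of all libraries the calls over all genes split into 741 higher and 1249 lower, and without centring into 1306 higher and 651 lower.

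**Figure D1:**
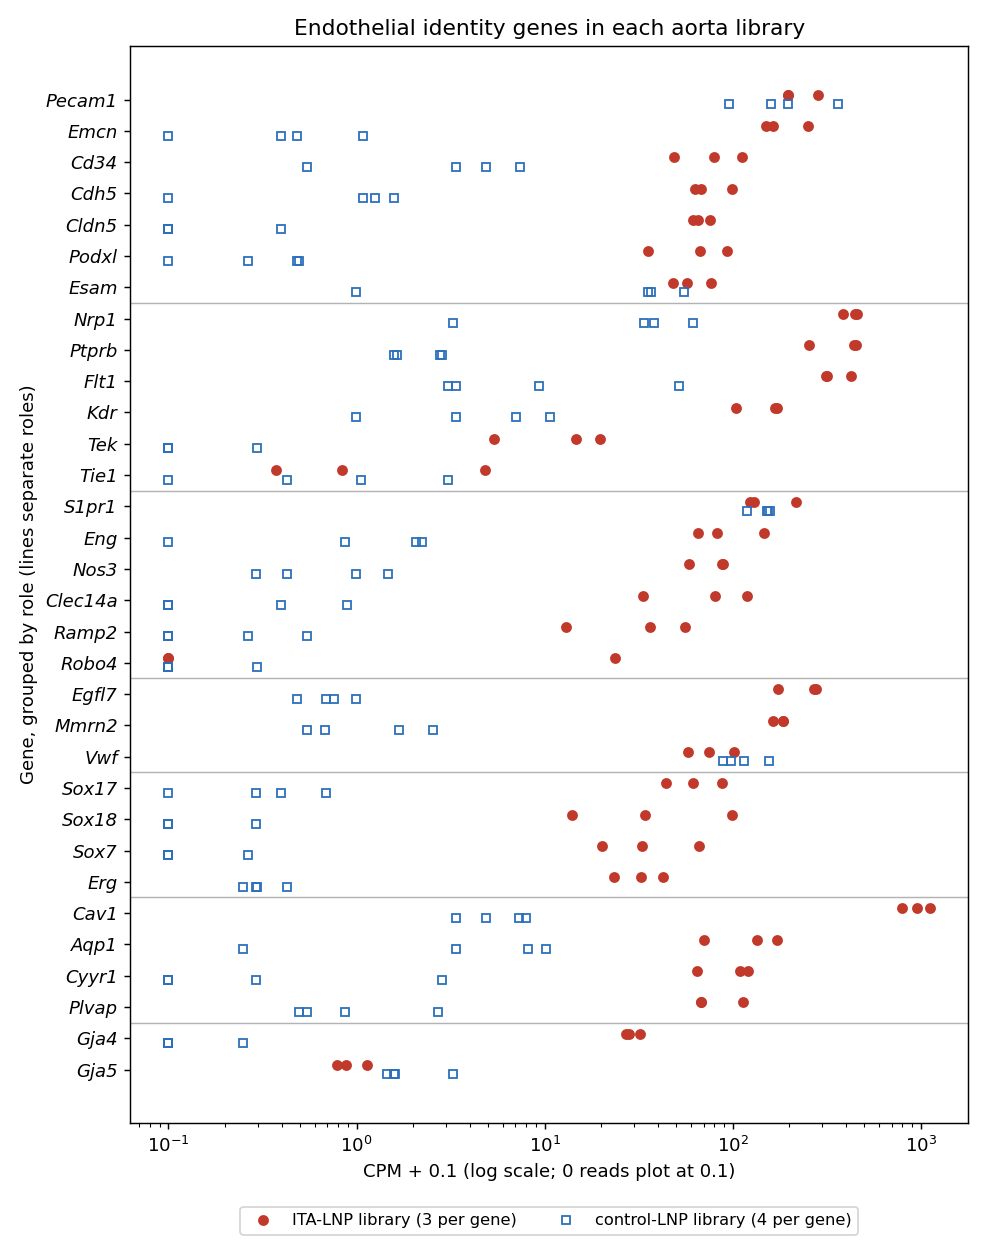
CPM of the 32 endothelial genes in each library on a log scale, with red circles for the 3 ITA-LNP libraries and open blue squares for the 4 control-LNP libraries. Genes are grouped by role from top to bottom, and a library with 0 reads is drawn at the left edge. For 25 genes all red circles lie right of all blue squares, while Pecam1, Esam, S1pr1, Vwf, Tie1 and Robo4 overlap and the Gja5 circles lie left of its squares.

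The 32 genes together took 0.438%, 0.448% and 0.471% of the reads in ITA-LNP libraries, against 0.0655%, 0.0678%, 0.0466% and 0.0521% in control-LNP libraries. Their summed level was 4523 ± 170.1 CPM (SD, n = 3) in the ITA-LNP group and 580.2 ± 103 CPM (SD, n = 4) in the control-LNP group, a ratio of 7.79. Pecam1, S1pr1, Vwf and Nrp1, picked as the 4 genes with the highest control-LNP means, together made up 19.8 ± 1.66% of it in ITA-LNP libraries (SD, n = 3) and 85.7 ± 3.41% in control-LNP libraries (SD, n = 4), a difference in a direction that the choice of these genes favours. Of the 32 genes, 16 averaged under 1 CPM in the control-LNP group, and 5, 9, 7 and 9 genes were at 0 reads in its 4 libraries. In the ITA-LNP libraries 0, 1 and 1 genes were at 0 reads, and 29 genes averaged 10 CPM or more.

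Promoter sequences are shown for Cav1, Egfl7, Emcn and Cldn5, which had the smallest p-values among the genes with an entry in the RefSeq promoter table. Ptprb and Mmrn2 had no entry. The table gives 300 bases per start site on GRCm38.p6, 250 before the start and 50 after it, and 18 of the 32 genes had an entry, 23 entries in all. For each gene the most upstream entry is printed 5′ to 3′ on the + strand, which is the strand of all 4 genes. Capitals mark AGGAAG or its reverse complement CTTCCT, a core sequence recognised by ETS factors such as ERG. The windows are chr6:17306085-17306384 for Cav1, chr2:26580833-26581132 for Egfl7, chr3:137340828-137341127 for Emcn and chr16:18776597-18776896 for Cldn5.
Cav1: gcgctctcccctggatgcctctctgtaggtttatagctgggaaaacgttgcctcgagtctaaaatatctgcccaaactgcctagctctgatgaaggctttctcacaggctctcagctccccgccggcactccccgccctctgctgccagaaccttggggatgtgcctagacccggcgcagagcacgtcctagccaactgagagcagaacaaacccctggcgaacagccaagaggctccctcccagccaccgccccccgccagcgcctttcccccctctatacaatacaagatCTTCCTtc
Egfl7: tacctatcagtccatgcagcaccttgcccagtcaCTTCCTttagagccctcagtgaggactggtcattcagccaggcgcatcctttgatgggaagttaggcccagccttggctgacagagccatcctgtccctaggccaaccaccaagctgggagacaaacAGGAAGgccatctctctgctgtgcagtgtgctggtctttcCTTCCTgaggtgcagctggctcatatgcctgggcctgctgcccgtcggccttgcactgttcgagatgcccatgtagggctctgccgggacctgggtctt
Emcn: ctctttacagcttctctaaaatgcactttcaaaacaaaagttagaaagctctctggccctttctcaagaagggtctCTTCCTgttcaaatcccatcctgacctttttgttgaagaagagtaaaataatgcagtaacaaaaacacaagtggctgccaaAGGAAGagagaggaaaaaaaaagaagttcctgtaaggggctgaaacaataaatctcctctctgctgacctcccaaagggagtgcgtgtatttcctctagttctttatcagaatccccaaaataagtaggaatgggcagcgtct
Cldn5: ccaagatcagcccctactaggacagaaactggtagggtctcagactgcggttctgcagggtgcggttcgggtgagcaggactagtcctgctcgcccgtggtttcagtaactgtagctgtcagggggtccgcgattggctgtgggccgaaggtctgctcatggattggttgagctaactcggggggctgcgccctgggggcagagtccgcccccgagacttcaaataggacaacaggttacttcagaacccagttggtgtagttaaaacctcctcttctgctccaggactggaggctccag
The printed windows hold 1 match in Cav1, 3 in Egfl7, 2 in Emcn and 0 in Cldn5. Of the 23 entries of the endothelial genes, 14 (60.9%) held AGGAAG on either strand, against 35.4% of all 32851 promoters in the table. Cav1, Egfl7 and Erg had more than 1 entry each. Counted by gene, 13 of the 18 held the motif in at least 1 entry, and no share by gene was computed over all promoters. Other motifs were searched on both strands too. The SOX core ACAAAG was in 17.4% of the entries, against 18.7% of all promoters. The GC box GGGCGG was in 43.5% against 35.7% of them. For the TATA box TATAAA these shares were 13.0% against 13.6%. These matches describe the letters in the windows and no binding was measured.

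Junction and surface sialomucin genes were first by role, and 5 of 7 were called higher. Emcn encodes endomucin, a sialomucin on the luminal surface of endothelium (chr3:137341067-137432185, + strand, mm10). It had 151, 163 and 249.9 CPM in ITA-LNP libraries, against 0.985, 0.299, 0.385 and 0 CPM in control-LNP libraries. The groups did not overlap, and 1 control-LNP library had no read. This gave a log2 fold change of 7.07 ± 0.79, with adjusted p = 0.000461. Cldn5, the tight junction protein claudin-5 (chr16:18776847-18778262, + strand), had 64.9, 75.3 and 61.8 CPM in ITA-LNP libraries, against 0, 0.299, 0 and 0 CPM in control-LNP libraries. Its control-LNP level rested on 2 reads in 1 library, so the ratio of pooled levels, 776, had a 95% counting interval of 214 to 6411. Its log2 fold change was 6.0 ± 0.79, with adjusted p = 0.00103. Cdh5, the VE-cadherin of endothelial adherens junctions (chr8:104101625-104144511, + strand), averaged 76.5 ± 19.5 CPM in the ITA-LNP group (SD, n = 3) and 0.904 ± 0.636 CPM in the control-LNP group (SD, n = 4), with adjusted p = 0.00214. Podxl, the sialomucin podocalyxin, averaged 65.2 ± 28.8 and 0.236 ± 0.190 CPM in the same order, with adjusted p = 0.00173.

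Cd34, a sialomucin of endothelium that fibroblasts and blood progenitors also carry, had 48.8, 79.1 and 113 CPM in ITA-LNP libraries, against 7.29, 0.449, 4.81 and 3.28 CPM in control-LNP libraries. The groups were apart, and the lowest ITA-LNP library was still above the highest control-LNP library. Its log2 fold change was 4.21 ± 0.88, with adjusted p = 0.00974, and adjusted p was 0.0598 without ITA-LNP replicate 3. Pecam1, the adhesion molecule CD31 (chr11:106654217-106750628, - strand), went against this pattern with 197, 198 and 284 CPM in ITA-LNP libraries and 197, 362, 96.0 and 159 CPM in control-LNP libraries. The control-LNP libraries enclosed the ITA-LNP values. The difference was 0.29 ± 0.47 on the log2 scale, with a 95% interval of -0.77 to 1.35 and adjusted p = 0.747. Esam, an adhesion molecule of endothelial junctions and platelets, had 76.4, 57.3 and 48.2 CPM in ITA-LNP libraries and 55.1, 0.897, 35.2 and 36.7 CPM in control-LNP libraries. The highest control-LNP library lay among the ITA-LNP libraries, and control-LNP replicate 2 was far below the other 3. The difference was 1.63 ± 1.13 on the log2 scale (95% interval -0.91 to 4.17), with adjusted p = 0.390, and 0.51 without control-LNP replicate 2, with adjusted p = 0.302.

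Of the 6 receptors and phosphatases of VEGF and angiopoietin signalling, 5 were called higher. Ptprb, the phosphatase VE-PTP that acts on VE-cadherin and the angiopoietin receptor, had 455, 256 and 443 CPM in ITA-LNP libraries, against 2.76, 2.69, 1.54 and 1.48 CPM in control-LNP libraries. All 4 control-LNP libraries were low and close together. Its log2 fold change was 6.93 ± 0.66, with adjusted p = 0.000196 (gene at chr10:116275523-116389535). Kdr, the main signalling receptor for VEGF in endothelium, had 167, 172 and 104 CPM in ITA-LNP libraries, against 10.6, 0.897, 6.92 and 3.28 CPM in control-LNP libraries. The groups did not overlap, and the log2 fold change was 4.80 ± 0.82, with adjusted p = 0.00350. Flt1, the VEGF receptor that also binds placental growth factor, averaged 352 ± 62.8 CPM in the ITA-LNP group (SD, n = 3) and 16.7 ± 23.3 CPM in the control-LNP group (SD, n = 4). The 51.4 CPM of control-LNP replicate 2 carried the control-LNP mean, which was 5.16 CPM without it. The log2 fold change of Flt1 was 5.16 ± 0.91 with all libraries (adjusted p = 0.00394) and 5.97 without that replicate. Nrp1, a VEGF co-receptor also made by fibroblasts and smooth muscle, averaged 431 ± 38.0 CPM in the ITA-LNP group (SD, n = 3) and 34.1 ± 24.0 CPM in the control-LNP group (SD, n = 4), with a log2 fold change of 4.15 ± 0.86 (adjusted p = 0.00901) and 3.30 without control-LNP replicate 2.

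Tek, the angiopoietin receptor TIE2, had 19.6, 5.31 and 14.6 CPM in ITA-LNP libraries, against 0.197, 0, 0 and 0 CPM in control-LNP libraries, where a single read was counted. The ratio of pooled levels was 301, with a 95% counting interval of 53.6 to 11942. The log2 fold change was 3.60 ± 0.75, with adjusted p = 0.00927. That call was lost without control-LNP replicate 3 (adjusted p = 0.0583) and without control-LNP replicate 4 (adjusted p = 0.0594). Tie1, the partner receptor of TIE2, had 4.71, 0.737 and 0.275 CPM in ITA-LNP libraries and 2.95, 0, 0.962 and 0.328 CPM in control-LNP libraries. These were 30, 5 and 2 reads against 15, 0, 5 and 2 reads, too few to place the groups apart. The difference was 0.38 ± 0.80 on the log2 scale (95% interval -1.42 to 2.18), with adjusted p = 0.812.

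Among 6 other surface receptors and enzymes, 4 were called higher. Nos3, the endothelial nitric oxide synthase (chr5:24364810-24384474), had 58.8, 88.0 and 88.4 CPM in ITA-LNP libraries, against 1.38, 0.897, 0.192 and 0.328 CPM in control-LNP libraries. Each control-LNP library was far below each ITA-LNP library, and the log2 fold change was 5.58 ± 0.82, with adjusted p = 0.00173. Clec14a, a C-type lectin receptor of endothelium that binds the matrix protein MMRN2, had 33.3, 119 and 80.6 CPM in ITA-LNP libraries, against 0.788, 0.299, 0 and 0 CPM in control-LNP libraries. The ITA-LNP libraries spread widely, yet the lowest was far above the highest control-LNP library. The log2 fold change was 5.81 ± 0.87, with adjusted p = 0.00188. Eng, the BMP co-receptor endoglin, averaged 98.3 ± 42.9 CPM in the ITA-LNP group (SD, n = 3) and 1.22 ± 1.01 CPM in the control-LNP group (SD, n = 4), with adjusted p = 0.00225. Ramp2, which partners the adrenomedullin receptor, averaged 35.0 ± 21.4 and 0.153 ± 0.212 CPM in the same order, with adjusted p = 0.00413. Without control-LNP replicate 2 the control-LNP mean of Ramp2 was 0.0547 CPM, and with it that mean rested on 4 reads.

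S1pr1, the sphingosine-1-phosphate receptor of endothelium and lymphocytes (chr3:115710433-115715072, - strand), had 216, 130.3 and 124 CPM in ITA-LNP libraries and 118, 155, 151 and 157 CPM in control-LNP libraries. Control-LNP replicates 2, 3 and 4 lay between the ITA-LNP values. The difference was 0.07 ± 0.39 on the log2 scale, with a 95% interval of -0.80 to 0.94 and adjusted p = 0.937. Robo4, an endothelial member of the roundabout receptors, was below the filter and was not tested with the others. It had 23.5, 0 and 0 CPM in ITA-LNP libraries and 0.197, 0, 0 and 0 CPM in control-LNP libraries, so 1 ITA-LNP library held all 150 reads of its group. With no filter its log2 fold change was 1.47 and its adjusted p 0.439.

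Of the 3 secreted proteins, Egfl7 and Mmrn2 were called higher and Vwf was not. Egfl7, a vessel matrix protein whose intron holds the endothelial microRNA miR-126, had 174, 277 and 269 CPM in ITA-LNP libraries, against 0.591, 0.897, 0.385 and 0.656 CPM in control-LNP libraries. No control-LNP library reached 1 CPM. This gave a log2 fold change of 7.19 ± 0.75, with adjusted p = 0.000305. Mmrn2, an endothelial matrix glycoprotein, had 184, 185 and 163 CPM in ITA-LNP libraries, against 1.58, 0.449, 0.577 and 2.46 CPM in control-LNP libraries. The ITA-LNP libraries were close together for this gene, and the log2 fold change was 6.39 ± 0.77, with adjusted p = 0.000659. Vwf, von Willebrand factor of endothelial cells and platelets (chr6:125546774-125686679), had 74.7, 57.5 and 102 CPM in ITA-LNP libraries and 156, 88.4, 115 and 98.2 CPM in control-LNP libraries. The ranges overlapped, with the highest value in control-LNP replicate 1. The difference was -0.55 ± 0.45 on the log2 scale (95% interval -1.56 to 0.46), with adjusted p = 0.479.

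All 4 transcription factors of the list were called higher, and each was counted with 1 to 6 reads in all control-LNP libraries together. Sox17, a SOXF factor of arterial endothelium, had 87.5, 43.9 and 61.5 CPM in ITA-LNP libraries, against 0.591, 0.299, 0.192 and 0 CPM in control-LNP libraries, and its log2 fold change was 5.65 ± 0.82 with adjusted p = 0.00162. Sox7 had 66.2, 20.2 and 32.7 CPM in ITA-LNP libraries, against 0, 0, 0 and 0.164 CPM in control-LNP libraries. Its log2 fold change was 5.13 ± 0.81, with adjusted p = 0.00243, and the ratio of pooled levels, 899, had a 95% counting interval of 161 to 35558. Sox18 averaged 48.8 ± 44.2 CPM in the ITA-LNP group (SD, n = 3) on values of 98.5, 13.9 and 33.9 CPM, against 1 read in the control-LNP group. Its log2 fold change was 5.15 ± 0.90 (adjusted p = 0.00386), and it was 4.45 without ITA-LNP replicate 1 and 5.82 without ITA-LNP replicate 2. The 3 SOXF genes had the same order of libraries in the ITA-LNP group, highest in replicate 1 and lowest in replicate 2. Erg, the ETS factor, averaged 32.7 ± 9.68 CPM in the ITA-LNP group (SD, n = 3) and 0.217 ± 0.0772 CPM in the control-LNP group (SD, n = 4), with adjusted p = 0.00285.

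Cav1, Plvap, Aqp1 and Cyyr1 were all called higher. Cav1, the coat protein caveolin-1 of the flask-shaped membrane pits called caveolae (chr6:17306335-17341452, + strand), had the highest ITA-LNP level of the 32 genes, with 791, 950.2 and 1126 CPM in ITA-LNP libraries, against 7.88, 7.18, 3.27 and 4.76 CPM in control-LNP libraries. Its groups were far apart and narrow, and its log2 fold change of 7.19 ± 0.53 had the smallest adjusted p of the list, 5.57e-05. Smooth muscle, fibroblasts and adipocytes also make Cav1. Cyyr1 had 64.6, 121 and 109 CPM in ITA-LNP libraries, against 2.76, 0, 0.192 and 0 CPM in control-LNP libraries, and its log2 fold change was 6.04 ± 0.90 with adjusted p = 0.00180. Plvap, which forms the diaphragms of caveolae and of endothelial pores, averaged 83.0 ± 26.2 CPM in the ITA-LNP group (SD, n = 3) and 1.06 ± 1.06 CPM in the control-LNP group (SD, n = 4), with adjusted p = 0.00219. Aqp1, the water channel aquaporin-1, had 173, 135 and 70.5 CPM in ITA-LNP libraries, against 10.05, 0.15, 3.27 and 8.04 CPM in control-LNP libraries. The groups did not overlap, and the log2 fold change was 4.66 ± 0.95, with adjusted p = 0.00855. The adjusted p of Aqp1 was 0.0562 without ITA-LNP replicate 1, and its log2 fold change was 3.98 without control-LNP replicate 2.

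The 2 gap junction connexins differed from each other. Gja4, connexin 37, had 27.0, 31.98 and 27.9 CPM in ITA-LNP libraries, against 0, 0.15, 0 and 0 CPM in control-LNP libraries, where it had 1 read. This gave a log2 fold change of 4.85 ± 0.75, with adjusted p = 0.00213, and the ratio of pooled levels, 668, had a 95% counting interval of 119 to 26424. Gja5, connexin 40, had 0.784, 1.03 and 0.687 CPM in ITA-LNP libraries and 3.15, 1.495, 1.35 and 1.48 CPM in control-LNP libraries. Every ITA-LNP library was below every control-LNP library, on 17 and 42 reads in all. The difference was -0.61 ± 0.64 on the log2 scale (95% interval -2.05 to 0.83), with adjusted p = 0.60.

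The 4 genes Nos3, Eng, Ramp2 and Egfl7 have an exon of another annotated gene within the last 500 bases of the gene. That gene is Vps25 on the same strand for Ramp2, and Atg9b, Fpgs and Agpat2 on the other strand for Nos3, Eng and Egfl7. Whether reads were assigned by strand is not given in the sources used here, so part of the counts of Nos3, Eng and Egfl7 could belong to the neighbour. For Ramp2 this could be so even with reads assigned by strand.

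**Figure D2:**
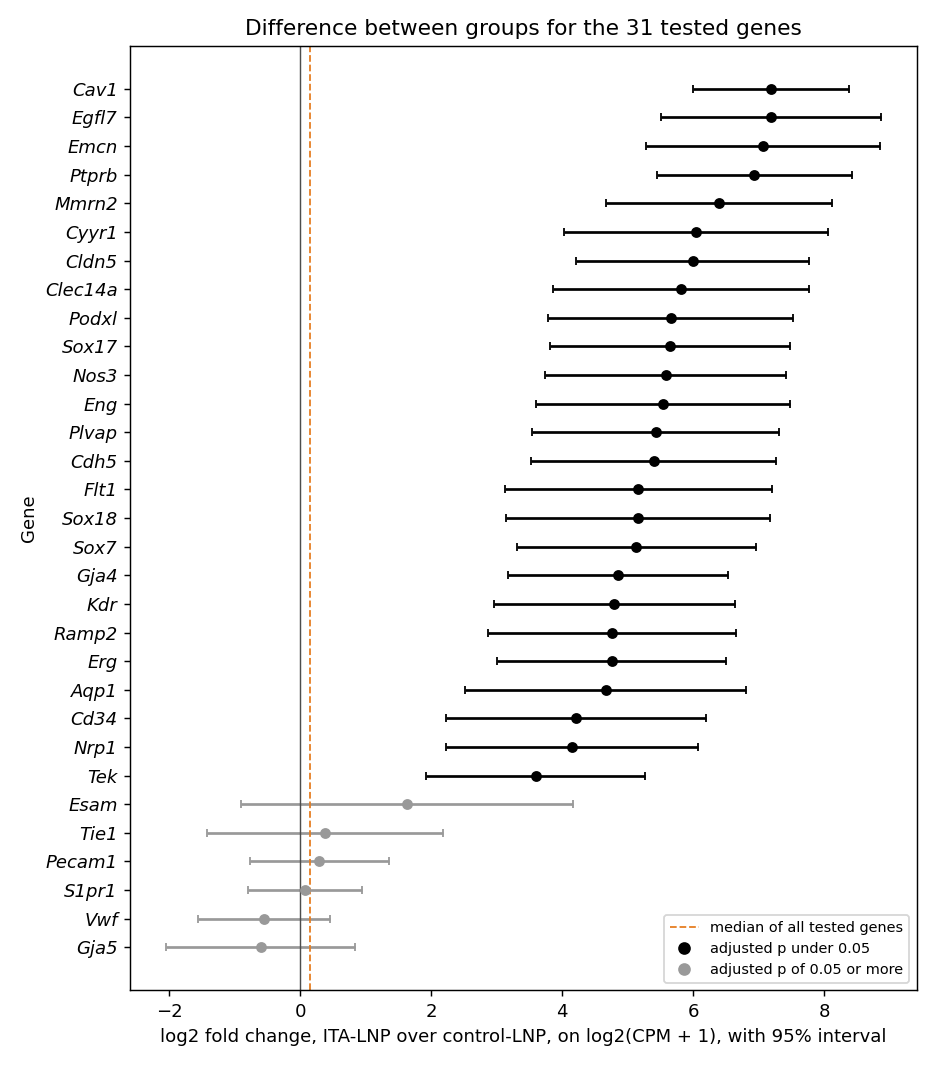
Log2 fold change of the 31 tested genes, ITA-LNP over control-LNP on log2(CPM + 1), with 95% intervals. Black points have an adjusted p under 0.05, grey points do not, and the dashed line is the median of all tested genes, 0.15. The 25 black points lie between 3.60 and 7.19, and the 6 grey intervals all include 0.

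Of the 6 genes that were not called, 4 are also made by blood cells. The 6 genes made in platelets, lymphocytes, red cells or blood progenitors (Pecam1, Vwf, Esam, S1pr1, Aqp1 and Cd34) had a median log2 fold change of 0.96, with 2 of 6 called higher, and their control-LNP means were 4.27% to 147% of their ITA-LNP means. The 26 genes not listed as made by these cells had a median of 5.42 over the 25 tested, with 23 called higher, beside a median of 0.15 over all tested genes. Tie1 and Gja5 are in this second set and were not called. All 17 tested genes that reached the filter through their ITA-LNP levels only belong to it, and 16 of those were called. Both sets were also chosen with earlier results of these data known. The contrast between the sets was therefore partly fixed by how they were formed. Over all tested genes 10.3% were called higher and 5.15% lower. The 14 platelet genes, 13 of them called lower, summed to 210.4 ± 65.8 CPM in the ITA-LNP group (SD, n = 3) and 7158 ± 698 CPM in the control-LNP group (SD, n = 4). The 7 T cell genes, 4 of them called lower, summed to 53.9 ± 25.8 and 721 ± 247 CPM in the same order, and the 7 B cell genes, 6 of them called lower, to 142 ± 89.5 and 3209 ± 895 CPM. Red cell genes summed to 2550.1 to 4229 CPM in ITA-LNP libraries and 12389 to 44806 CPM in control-LNP libraries. The part of these cells in the levels of Pecam1, Esam, Vwf and S1pr1 was not tested.

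Ratios between genes within a library do not depend on its depth. For each 100 reads of Pecam1 there were 34.6, 31.7 and 34.8 reads of Cdh5 in ITA-LNP libraries, against 0.499, 0, 1.20 and 0.929 reads in control-LNP libraries. Both genes mark endothelial junctions, and the ratio was stable within the ITA-LNP group at 33.7 ± 1.74 (SD, n = 3). For each 100 reads of Vwf there were 233, 482 and 264 reads of Egfl7 in ITA-LNP libraries, against 0.379, 1.02, 0.334 and 0.668 reads in control-LNP libraries. Cav1 made up 18.1%, 21.2% and 23.9% of the summed level of the 32 genes in ITA-LNP libraries, against 1.20%, 1.06%, 0.701% and 0.913% in control-LNP libraries.

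**Figure D3:**
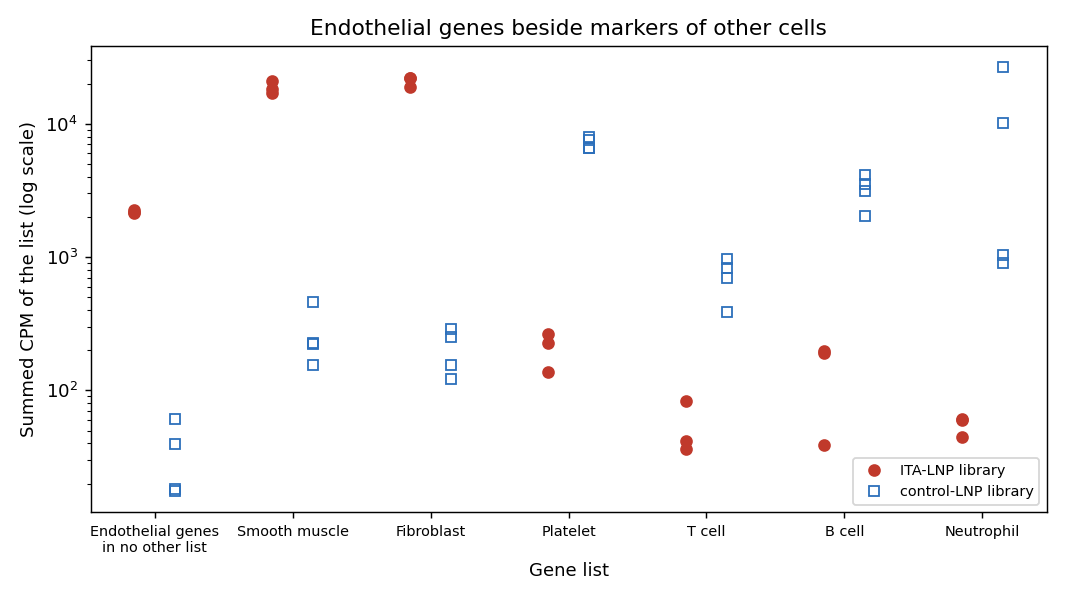
Summed CPM on a log scale of the 20 endothelial genes in no other marker list and of 6 marker lists, with red circles for ITA-LNP libraries and open blue squares for control-LNP libraries. The endothelial, smooth muscle and fibroblast sums are higher in all ITA-LNP libraries, and the platelet, T cell, B cell and neutrophil sums are higher in all control-LNP libraries.

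The 20 endothelial genes in no list of another cell type summed to 2175, 2129 and 2238 CPM in ITA-LNP libraries, against 39.4, 60.5, 18.3 and 17.5 CPM in control-LNP libraries, a ratio of means of 64.2. Flt1 was the larger part of the sum in control-LNP replicate 2: without Flt1 the sums were 1858, 1704 and 1923 CPM in ITA-LNP libraries, against 30.1, 9.12, 15 and 14.6 CPM in control-LNP libraries. The 8 endothelial genes that smooth muscle, fibroblasts, adipocytes or other wall cells also make (Cav1, Nrp1, Gja4, Cd34, Eng, Ramp2, Aqp1 and Podxl) were all called higher, with a median log2 fold change of 4.80. Other wall markers were low in the same libraries. The median control-LNP level of the same 20 endothelial genes was 0.967%, 0.380%, 0.312% and 0.399% of the ITA-LNP mean in control-LNP replicates 1 to 4, though Tie1 and Gja5 stood at 55.7% and 224% over the control-LNP group. The median for 7 smooth muscle genes was 1.29%, 0.865%, 0.666% and 0.738%, and for 7 fibroblast genes 1.42%, 0.976%, 0.601% and 0.679%. The part that the wall content of the libraries had in the endothelial differences was not tested, and the group and that content cannot be told apart, since all control-LNP libraries were low in it.

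Within the ITA-LNP group the genes varied to very different degrees. A coefficient of variation under 15% was found for 4 genes: Mmrn2 with 6.92%, Nrp1 with 8.81%, Gja4 with 9.21% and Cldn5 with 10.5%. A further 7 were over 50%: Robo4, Tie1, Sox18, Ramp2, Sox7, Clec14a and Tek. Replicate 1 was the highest ITA-LNP library for 12 genes, among them the 3 SOXF factors, Tek, Robo4 and Tie1. Replicate 2 was the highest for 11 genes, among them Flt1, Kdr, Clec14a, Eng, Egfl7 and Mmrn2. Replicate 3 was the highest for 9 genes, among them Cdh5, Emcn, Podxl, Nos3, Erg and Cav1. No ITA-LNP library was thus high or low for the endothelial genes as a whole.

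**Figure D4:**
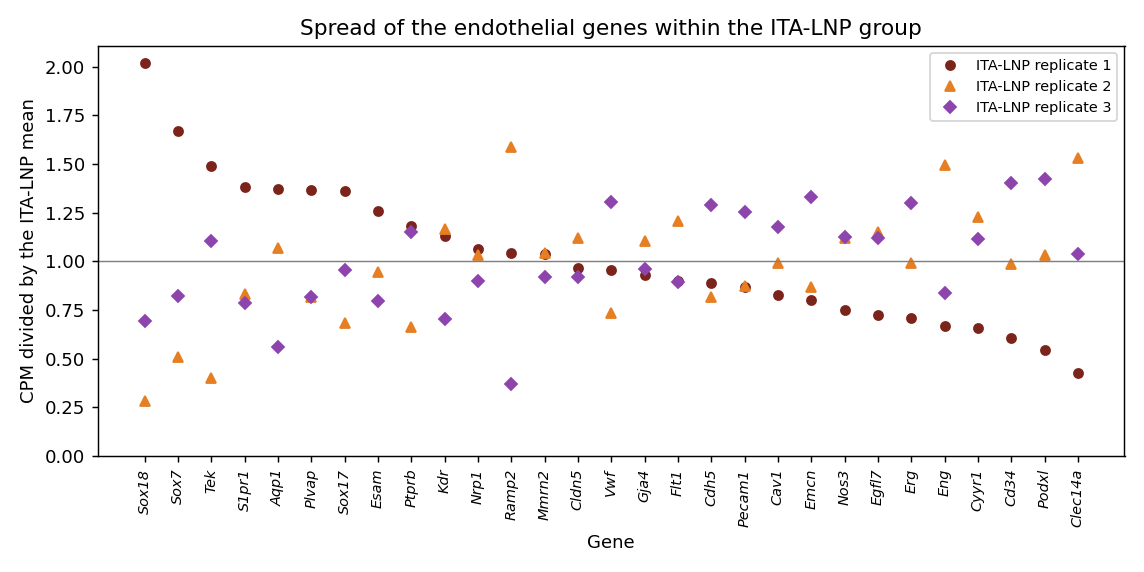
CPM of each ITA-LNP library divided by the ITA-LNP mean, for the 29 genes that averaged 10 CPM or more, ordered by replicate 1. The line at 1 marks the mean. Sox18 and Sox7 are highest in replicate 1 and Clec14a is lowest there, while the Mmrn2 and Nrp1 libraries lie close together.

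Genes of the pathways around these 32 were set beside them. Other cells of the wall can make genes of these lists too, and which cells made the transcripts was not tested. The 7 lists of related genes held 97 genes in the table, of which 86 were tested, 44 were called higher and 3 lower, with a median log2 fold change of 2.94. Beside these counts and those of each list below, 10.3% of all tested genes were called higher and 5.15% lower. How many of the 86 reached the filter through their ITA-LNP levels only was not counted. Median centring left 25 of the 86 called higher, and of the genes named here Nrp2, Id3, Smad6, Klf2, Mef2c, Tal1 and Pdpn were then not called. In the Notch and arterial or venous identity list 9 of 14 tested genes rose. Nr2f2, the venous factor COUP-TFII, averaged 246 CPM in the ITA-LNP group and 2.32 CPM in the control-LNP group (6.21 ± 0.69, adjusted p = 0.000418), and Heyl, a Notch target, 75.7 against 0.815 CPM (5.37 ± 0.80, adjusted p = 0.00181). Of the VEGF and angiopoietin ligands and co-receptors 5 of 8 rose, led by Angpt2, an angiopoietin that binds TIE2, at 108 against 1.35 CPM (5.56 ± 0.77, adjusted p = 0.00134), and Nrp2 at 101.3 against 4.52 CPM (4.24 ± 0.74, adjusted p = 0.00374). Of the caveola coat genes 4 of 6 rose. They were led by Prkcdbp, the cavin-3 gene, at 481 against 3.95 CPM (6.61 ± 0.57, adjusted p = 0.000115), and Ehd2, an ATPase at the neck of caveolae, at 169.6 against 2.39 CPM (5.73 ± 0.74, adjusted p = 0.000923).

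Of the endoglin and BMP signalling genes 4 of 13 rose, among them Id3, a target of BMP signalling, at 1185 CPM in the ITA-LNP group and 112 CPM in the control-LNP group (3.48 ± 0.39, adjusted p = 0.000428), and the inhibitor Smad6 at 34.1 against 0.777 CPM (4.26 ± 0.81, adjusted p = 0.00577). Of the junction partners 10 of 16 rose, led by Jup, plakoglobin, at 169.9 against 3.56 CPM (5.31 ± 0.73, adjusted p = 0.00124), and Gja1, connexin 43, at 87.2 against 0.543 CPM (5.82 ± 0.81, adjusted p = 0.00134). In the shear stress and vasodilator list 7 of 12 rose and 1 fell. Ptgis, prostacyclin synthase, averaged 793 against 5.24 CPM (7.10 ± 0.59, adjusted p = 9.51e-05), and Gucy1a3, a subunit of the nitric oxide receptor, 125 against 2.90 CPM (5.04 ± 0.75, adjusted p = 0.00180). Smooth muscle makes Gucy1a3, Ptgis and Jup too. Klf2, a shear-induced factor that lymphocytes also make, was the gene that fell, with 469.8, 277 and 315 CPM in ITA-LNP libraries, against 822, 1156, 820.1 and 685 CPM in control-LNP libraries (-1.31 ± 0.29, adjusted p = 0.0123). Its adjusted p was 0.0558 without ITA-LNP replicate 2 and 0.0522 without ITA-LNP replicate 3, and 0.162 with no trend in the variance prior.

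Endothelial transcription factors outside the 32 genes went both ways, with 5 of 17 called higher and 2 lower. Epas1, the hypoxia-inducible factor HIF-2 alpha, averaged 341 CPM in the ITA-LNP group and 4.22 CPM in the control-LNP group (6.07 ± 0.65, adjusted p = 0.000348), and Foxc1 185 against 1.58 CPM (6.24 ± 0.75, adjusted p = 0.000659). The 2 lower genes, named after their values were seen, were Mef2c and Tal1, which blood cells also make. Mef2c averaged 140.2 against 394 CPM (-1.48 ± 0.36, adjusted p = 0.0205) and Tal1 9.22 against 53.9 CPM (-2.55 ± 0.73, adjusted p = 0.0413). Both calls were lost when single libraries were left out and in other settings. The adjusted p of Mef2c was 0.0545 and 0.0766 without ITA-LNP replicates 1 and 3, and 0.0600 and 0.0748 without control-LNP replicates 1 and 4. That of Tal1 was 0.0517, 0.120 and 0.0906 without ITA-LNP replicates 1, 2 and 3, and 0.0910, 0.0860 and 0.126 without control-LNP replicates 1, 3 and 4. With no trend in the variance prior the adjusted p of Mef2c was 0.130, and that of Tal1 was 0.129 with voom, 0.0677 with a robust prior and 0.0553 with a pseudocount of 0.25 CPM.

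Markers of special kinds of endothelium were also read, again beside 10.3% of all tested genes called higher and 5.15% lower. The 7 capillary genes summed to 1525, 1627 and 1463 CPM in ITA-LNP libraries, against 79.97, 56.2, 61.4 and 85.9 CPM in control-LNP libraries, and all 6 tested were called higher. Among them were Gpihbp1, which anchors lipoprotein lipase on capillary endothelium, with a mean of 99.2 CPM in the ITA-LNP group and 0.647 CPM in the control-LNP group (5.86 ± 0.83, adjusted p = 0.00151), and the fatty acid receptor Cd36, which macrophages, adipocytes and platelets also carry, with 898 against 30.3 CPM (5.32 ± 0.83, adjusted p = 0.00222), and a log2 fold change of 4.47 without control-LNP replicate 2. The 6 venous and activated genes summed to 1498, 1551 and 1759 CPM in ITA-LNP libraries, against 60.1, 12.9, 46.0 and 60.8 CPM in control-LNP libraries, with 2 of 4 tested called higher. Vcam1, an adhesion molecule for leukocytes that smooth muscle in lesions also makes, averaged 1339 against 15.4 CPM (6.46 ± 0.48, adjusted p = 6.03e-05). Vcam1 was thus the larger part of the ITA-LNP sum of this list, which averaged 1603 CPM. Selp, P-selectin of endothelium and platelets, averaged 150.3 against 12.8 CPM (4.00 ± 1.02, adjusted p = 0.0245). Its adjusted p was 0.0696, 0.10 and 0.106 without ITA-LNP replicates 1, 2 and 3, and its log2 fold change was 3.07 without control-LNP replicate 2.

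The 7 lymphatic genes summed to 273, 129.5 and 105 CPM in ITA-LNP libraries, against 72.3, 1.20, 41.4 and 72.5 CPM in control-LNP libraries, and 2 of 5 tested were called higher. Lyve1, a hyaluronan receptor of lymphatic endothelium and of macrophages in the vessel wall, averaged 83.4 CPM in the ITA-LNP group and 3.35 CPM in the control-LNP group (4.38 ± 0.79, adjusted p = 0.00449). Pdpn, podoplanin, averaged 8.67 against 0.169 CPM (2.99 ± 0.69, adjusted p = 0.0150) and was not called without control-LNP replicate 1, 3 or 4 (adjusted p = 0.0722, 0.0975 and 0.0841). Of the tested lymphatic genes that were not called, Mmrn1 averaged 11.1 CPM in the ITA-LNP group and 37.0 CPM in the control-LNP group (-2.05 ± 1.64, adjusted p = 0.471), Reln 20.9 against 4.54 CPM (adjusted p = 0.311) and Ccl21a 41.3 against 0.144 CPM (adjusted p = 0.109). Mmrn1 was thus the larger part of the control-LNP sum of this list, which averaged 46.8 CPM. The defining factor of lymphatic endothelium, Prox1, had 1 read in the ITA-LNP libraries together and 37 in the control-LNP libraries together. Flt4, the receptor of lymphatic growth factors, had 11.3, 0.147 and 0.137 CPM in ITA-LNP libraries and is listed at 0 in all control-LNP libraries, so nearly all its reads came from ITA-LNP replicate 1, as for Robo4. The 7 white adipocyte genes summed to 266, 195 and 194 CPM in ITA-LNP libraries, against 34.7, 60.2, 38.9 and 17.5 CPM in control-LNP libraries, where Adipoq and Cidec had 0 reads. The part of attached fat in the capillary genes was not tested.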

How the data were processed

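The sample titles gave the group and number of each library; they say NP and the protocol says LNP. Per the labels' protocols, QuantSeq 3′ libraries were made from 500 ng of RNA, so gene length does not enter a level. Reads refer to mm10, a build named in the submitters' processing notes. Not given in the sources used here are aligner, counter, annotation, strand setting and use of molecular identifiers. The authors' deposited table holds log10 values. Their base was read from the table: 10 to the power of each value, minus 1, sums to 1000000 per library, so they are log10(CPM + 1). All values (100%) gave whole reads within a tolerance of 0.01. Counting intervals (exact binomial, 95%) and the 3-read limit cover counting error only.

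CPM were taken to log2 with 1 CPM added, which understates the change of low genes. The fixed design expected a log2 table. Genes with a mean log2(CPM + 1) of at least 1 were kept (12636). All 7 libraries entered limma-trend (limma 3.58.1, R 4.3.3) with no covariate and Benjamini-Hochberg adjustment over all genes tested, called at 0.05. The procedure was tested on simulated data with fewer changed genes and no outlying library. That test does not cover libraries that differ in cell content. Alternatives were other filters, pseudocounts, scalings, priors and weights, voom on the recovered reads, the replicate block, and each library left out. A threshold of 0.1 on the adjusted p was a further alternative. Gene coordinates are from GENCODE M21 and promoters from RefSeq.

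The 32 genes and all lists were chosen with earlier results of these data known. Values in every library were given for the first 2 genes by p-value of each role, for genes not called, and for genes whose call changed when 1 library was left out. The first 2 called genes by p-value of each related list were named. Genes named from the endothelial subtype lists, and Klf2, were chosen after their values were seen.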

Additional observations from a re-analysis of the deposited data

Results flagged for a closer look

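In 11 of 33 groups of 4 control-LNP values, the highest or the lowest library lay farther from its nearest neighbour than Dixon's criterion allows for 4 values. Chance gives such a gap in about 1 in 20 groups, and genes with reads in a single library always give it. Genes with reads in 1 control-LNP library only were Cldn5 with 0.299 CPM and Gja4 with 0.15 CPM in control-LNP replicate 2, Tek and Robo4 with 0.197 CPM in replicate 1, Sox7 with 0.164 CPM in replicate 4 and Sox18 with 0.192 CPM in replicate 3, all below the 3-read limit. Flt1 was high, at 51.4 CPM in control-LNP replicate 2, against 2.95 to 9.26 CPM in the other control-LNP libraries and 315 to 425 CPM in ITA-LNP libraries. S1pr1 was low in control-LNP replicate 1, at 118 CPM, against 151 to 157 CPM in the others. Plvap was high in control-LNP replicate 4, at 2.62 CPM, and without it the control-LNP mean was 0.537 CPM, against 1.06 CPM with it. Cyyr1 was high in control-LNP replicate 1, at 2.76 CPM, and without it the control-LNP mean was 0.0641 CPM, against 0.737 CPM with it. Gja5 was high in the same replicate, at 3.15 CPM, against 1.35 to 1.495 CPM in the others. None of these libraries, left out in turn, ended the call of Flt1, Plvap or Cyyr1.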

How the results depend on the processing

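The count of endothelial genes called higher was 25 as reported, 24 to 25 when 1 library was left out, 22 with median centring (without Flt1, Tek and Ramp2, adjusted p = 0.134, 0.145 and 0.0650), 24 with a filter at a mean log2 of 2, and 25 in the other settings run except the replicate block. The count called lower was 0 throughout. Of 615 values of single endothelial genes under 20 alternatives, 598 kept direction and call, 9 lost the call and 8 changed direction. Among the 20 was a threshold of 0.1 on the reported fit, where no direction could change and no call could be lost. The other filters, the fit with no trend and the robust prior left the fold changes as reported, so direction could not change there either. With median centring the log2 fold changes were -0.84 for Pecam1, -0.75 for Tie1 and -1.06 for S1pr1, and with median centring without control-LNP replicate 2 they were -0.14 for Tie1 and -0.13 for S1pr1. With 1 library left out, S1pr1 ran from -0.19 to 0.22 and Pecam1 from -0.0127 to 0.62. The median log2 fold change of the endothelial genes was 5.15, and 6.35 with a pseudocount of 0.25, 3.94 with 4, 4.03 with median centring, 4.67 with quantile normalization and 6.92 with voom. The number of all genes changed was 1957, and 3015 with quantile normalization, 4343 with array weights, 4325 with median centring without control-LNP replicate 2, and 1387 to 4053 with 1 library left out. Genes of related pathways called higher numbered 44, 25 with median centring and 37 to 53 with 1 library left out; those called lower numbered 3, and 0 to 10 over the alternatives. The cause was not tested. Over all tested genes, same-numbered libraries did not deviate together from their group means (correlations 0.0053, -0.0105 and -0.0173). This cannot settle whether the numbers pair the libraries, because the groups differ widely in cell content. In the replicate block, control-LNP replicate 4 has no partner and adds nothing to the fold changes. The replicate block called 1060 genes in all and 23 endothelial genes higher, without Cd34 (adjusted p = 0.0637) and Tek (0.0792). Of the other named genes, the replicate block ended the calls of Nrp2 (0.0527), Smad6 (0.0538), Klf2 (0.0570), Pdpn (0.117), Mef2c (0.121) and Tal1 (0.199). The summed CPM ran from 4429.5 to 4596 in the ITA-LNP group and 548 to 618 in the control-LNP group with 1 library left out. The median control-LNP level was 0.732% of the ITA-LNP level, and 0.628% to 0.889% with 1 library left out. Depth limits the control-LNP levels: 16 genes had 20 or fewer reads in that group, and their folds depend on the pseudocount.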
